A study of Mus musculus with 8 samples.

Results

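The replication-dependent histone cluster genes encode the core histones H2A, H2B, H3 and H4 and the linker histone H1, which package DNA into nucleosomes and higher-order chromatin. All rows of the deposited count table whose symbol begins with Hist1h, Hist2h, Hist3h or Hist4h were taken, which gave 75 of 30419 rows. Of these 75 rows, 38 (50.7%) had a count in at least 1 library and 37 had none. The 12 rows with 10 or more counts in 2 or more libraries were tested.

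The libraries came from early-passage mouse embryonic fibroblasts taken at E13.5, in 4 groups of 2 libraries each, named A and B. The groups were Dino loxP/loxP (mutant) cells with 0.2 µg/mL doxorubicin for 8 h, mutant cells with vehicle, Dino+/+ (WT) cells with doxorubicin and WT cells with vehicle, and the vehicle groups are called control here. Dino, a p53-induced long noncoding RNA, is transcribed from the neighbourhood of Cdkn1a. Doxorubicin is a topoisomerase II poison that breaks DNA. The level of Dino was not analysed here, so the mutant label was not checked at its own locus. Whether A and B are separate cultures or embryos is not labelled, and p-values then measure only the spread between these libraries, which may be technical.

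Replication-dependent histone mRNAs are made mainly in S phase, when new DNA needs new histones. Most have no introns, and in place of a poly(A) tail they end just after a conserved stem-loop that the stem-loop binding protein, Slbp, holds through processing, translation and decay. When replication is blocked these mRNAs are normally degraded quickly. Some cluster genes also give polyadenylated transcripts that run past the stem-loop to a later cleavage site, and these have been described in differentiated and non-dividing cells.

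The stem-loop was looked for in the annotated transcripts because it marks the end of the replication-dependent form. In GENCODE M21 transcripts (GRCm38), the stem-loop letters (GG, any 2 bases, CTTTT, any base, AG, any 2 bases, CC) occurred on the transcript strand in the 3′ UTR of the longest coding transcript of 9 of the 12 tested genes, 18 of the 26 genes counted below the filter and 16 of the 29 annotated gene symbols with no counts, against 17 of 22433 other genes in any annotated 3′ UTR (0.0758%). The tested genes held 3 forms, shown with the loop in capitals and each named after a gene that carries it.
Hist2h3c1: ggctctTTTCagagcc
Hist4h4: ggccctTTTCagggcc
Hist1h4i: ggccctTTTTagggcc
The form shown for Hist2h3c1 was shared by 7 tested genes (Hist1h1c, Hist1h1d, Hist1h2ac, Hist1h2be, Hist2h3c1, Hist2h3c2 and Hist3h2a), and each of the others was found in 1. The motif began 25 to 55 bases after the stop codon in the 9 genes. These letters were not in the 3′ UTR of the longest coding transcript of Hist1h2bc, Hist1h2bp or Hist2h2be. For Hist1h2bc and Hist1h2bp that transcript had 2 exons, and for Hist2h2be it had 1. That of Hist1h2be, which holds the stem-loop, also had 2 exons. Any shorter annotated transcripts of Hist1h2bc, Hist1h2bp and Hist2h2be are not covered here, so a stem-loop in them is not excluded.

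All 9 tested genes with the stem-loop were annotated past it, by 330 to 4884 bases with a median of 1643. Among genes counted below the filter the annotation ran 11 to 1214 bases past the stem-loop, with a median of 112.5 bases over 18 genes. Among genes with no counts it ran 3 to 1257 bases past, with a median of 35 over 16 genes. The longest coding transcript had a median length of 1985.5 bases in the 12 tested genes, 595 in the 26 genes below the filter and 480 in the 29 annotated symbols with no counts. Transcripts over 1000 bases were annotated for 10 of 12 tested genes, 5 of 26 genes below the filter and 3 of 29 without counts. The polyadenylation signal AATAAA stood within the last 50 bases of the longest coding transcript in 6 of the 12 tested genes, 2 of the 26 below the filter and 4 of the 29 without counts, against 38.6% of 66669 coding transcripts of other genes. That background counts every coding transcript, not the longest of each gene, so the shares are not like for like. The 6 tested genes were Hist1h1c, Hist1h2bp, Hist2h2be, Hist2h3c1, Hist3h2a and Hist4h4. Longer transcripts can collect more reads, and a capture-based library kit and sequencing of 3′ ends are both given in the labels without settling which was used, so the part of either in these counts was not tested.

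**Figure D1:**
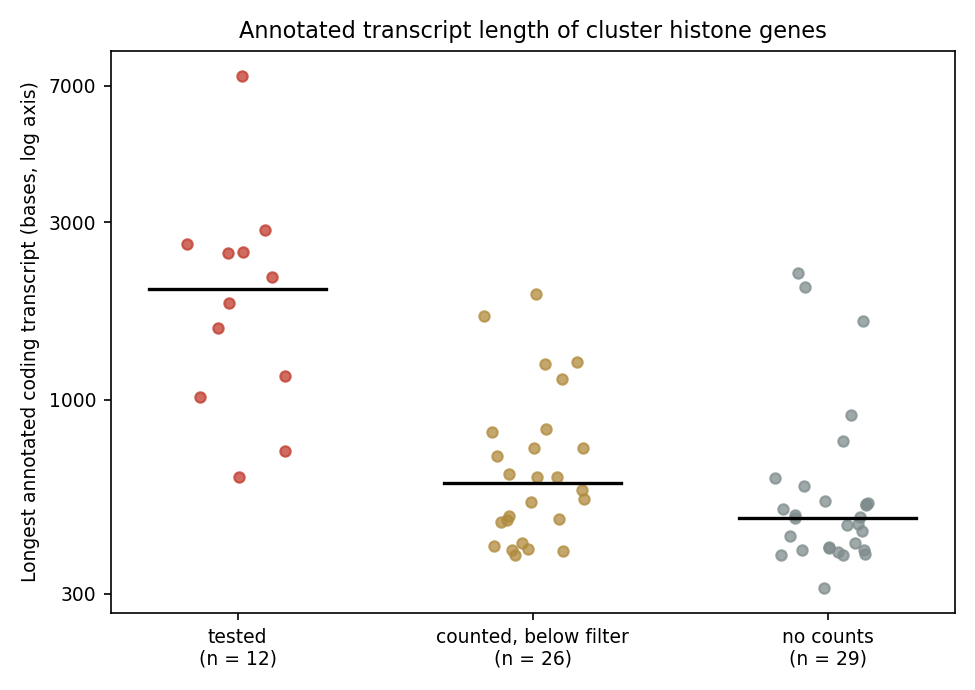
Length of the longest annotated coding transcript (bases, log axis) of each cluster histone gene symbol, by whether its row was tested, had counts below the filter or had no counts. Points are genes and bars are medians, which stood at 1985.5, 595 and 480 bases.

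By class, the tested rows were 2 of 6 for H1, 2 of 22 for H2A, 4 of 21 for H2B, 2 of 12 for H3 and 2 of 14 for H4. By cluster, they were 7 of 59 Hist1 rows, 3 of 12 Hist2 rows, 1 of 3 Hist3 rows and the only Hist4 row. The 26 rows below the filter never exceeded 8 counts in a library and had a median of 2.5 counts over all 8 libraries. Summed over those 26 rows, the libraries held 10 and 19 counts in mutant cells with doxorubicin, against 13 and 12 in mutant control, and 27 and 23 counts in WT cells with doxorubicin, against 12 and 11 in WT control. The 37 empty rows covered 30 symbols, since 7 rows repeat a symbol with a numeric suffix. They included Hist1h1t, the testis H1 gene, and Hist1h2aa and Hist1h2ba, the testis H2A and H2B genes. A count of 0 allows up to 3 counts, or 0.0879 to 0.12 CPM (counts-per-million) across the libraries, and this covers counting error only. The 7 symbols with a repeated row had no counts in either row. How reads shared by repeats or near copies were treated is not given, so this bound may not hold for them.

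Total counts per library ran from 25482805 to 33285171, and the cluster histone rows took 2662 to 5229 of them, or 0.009078% to 0.0187%. The 12 tested rows held 99.48% to 99.73% of these counts. Values below are CPM after TMM scaling. Sums by histone class, by cluster and over the whole family are instead plain CPM, without that scaling. A row was called higher or lower at an edgeR adjusted p under 0.05 over all 12296 rows tested. All 10 fibroblast markers were tested, and they summed to 3315 to 3494 CPM in mutant cells with doxorubicin, against 3648 to 3789 in mutant control, and to 3487 to 3725 in WT with doxorubicin, against 3752 to 4058 in WT control, so the sum was lower in the treated libraries of each genotype. Of the markers of other cells, those of macrophages and leukocytes (7 of 7 tested) summed to 18.72 to 25.88 CPM with doxorubicin and 11.58 to 18.35 in control, and those of endothelium (3 of 5 tested) to 5.688 to 11.3 CPM with doxorubicin and 1.612 to 3.224 in control. Neural markers (4 of 4 tested) summed to 44.96 to 45.95 CPM in mutant cells with doxorubicin, against 59 to 59.4 in mutant control, and to 34.41 to 36.26 in WT with doxorubicin, against 33.2 to 33.99 in WT control. Epithelial markers (1 of 5 tested) summed to 0.3757 to 0.8124 CPM, and erythroid markers (1 of 4 tested) to 0 to 0.4696 CPM, with Hbb-b1 and Hba-a1 at 0 throughout. The fibroblast, macrophage, endothelial and neural sums moved with treatment or genotype, and the part of these cells in the histone results was not tested. In bulk RNA, fewer cells of a type and less RNA per cell cannot be told apart.

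Most tested cluster histone genes were higher with doxorubicin, and they did not move as a block. In mutant cells 8 of 12 were called higher, 2 lower and 2 not called, where 54.0% of all rows tested were called, 28.3% higher and 25.7% lower. In WT cells 7 of 12 were called higher, 2 lower and 3 not called, where 57.2% of all rows were called, 29.3% higher and 27.9% lower. For the response averaged over genotypes, 9 were called higher, 2 lower and 1 not called, where 66.1% of all rows were called, 33.7% higher and 32.4% lower. The median log2 fold change of the 12 was 1.15 in mutant cells and 1.33 in WT cells, against 0.01 in mutant cells and 0.01 in WT cells over all rows. Hist1h2bp passed the filter only through treated libraries and Hist1h4i only through control libraries, so these rows were bound to lean towards a difference. Without them, 7 of 10 were called higher and 2 lower in mutant cells, and 6 of 10 higher and 2 lower in WT cells. These are counts of genes that passed a filter, not of the family.

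**Figure D2:**
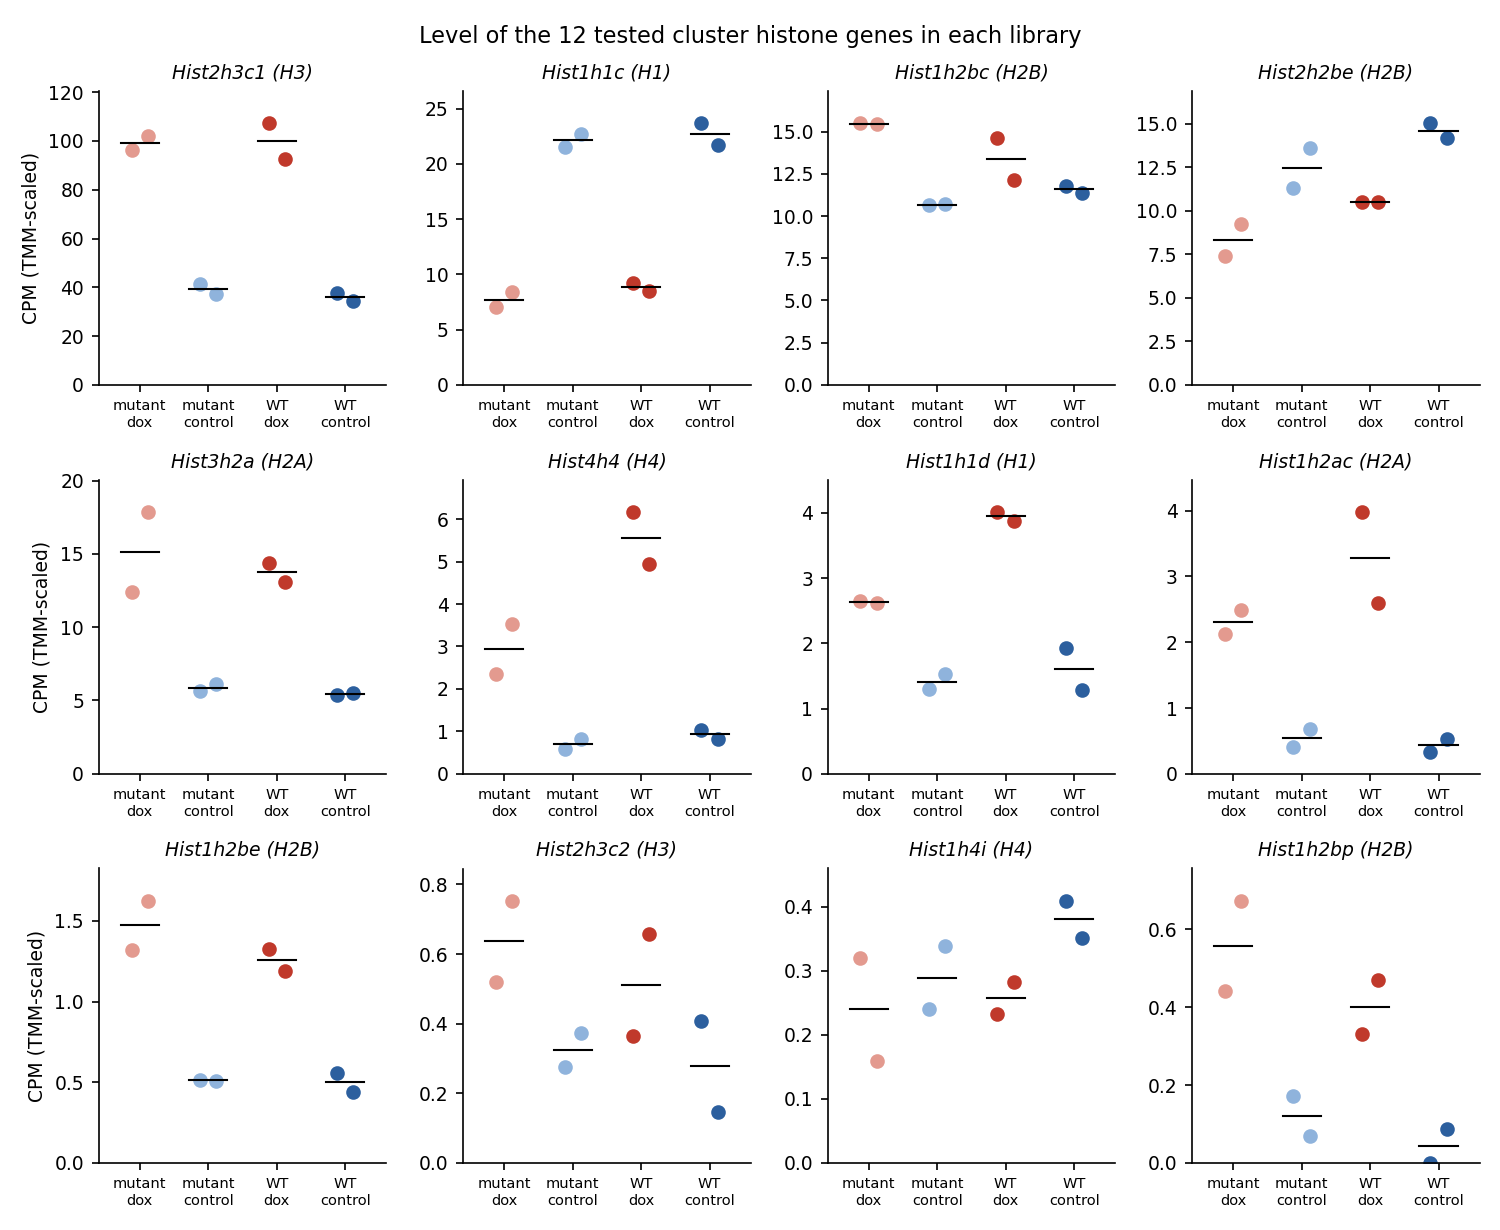
Level of each of the 12 tested cluster histone genes in each library (TMM-scaled CPM, axis from 0, own scale per gene). Points are libraries A and B of mutant with doxorubicin, mutant control, WT with doxorubicin and WT control (dox, doxorubicin), and lines are means. Hist2h3c1 stood at 92.6 to 107 CPM in treated libraries and 34.4 to 41.5 in control libraries, and Hist1h1c at 7.05 to 9.22 in treated and 21.6 to 23.7 in control libraries.

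Linker histone genes went both ways. H1 binds the DNA that enters and leaves the nucleosome. Hist1h1c, which encodes the H1.2 subtype, had 7.05 and 8.39 CPM in mutant cells with doxorubicin, against 21.6 and 22.7 CPM in mutant control. WT cells had 9.22 and 8.45 CPM with doxorubicin, against 23.7 and 21.7 CPM in control. Every treated library was below every control library, and the log2 fold change was -1.52 ± 0.11 (SE, n = 2 per group) in mutant cells (edgeR adjusted p = 2.75e-10) and -1.36 ± 0.11 in WT cells (edgeR adjusted p = 6.507e-10). Hist1h1d, which encodes H1.3, had 2.64 and 2.61 CPM in mutant cells with doxorubicin, against 1.30 and 1.52 in mutant control. The WT libraries had 4.01 and 3.88 CPM with doxorubicin, against 1.93 and 1.29 in control. All treated libraries were above all control libraries, with log2 fold changes of 0.89 ± 0.23 in mutant cells (edgeR adjusted p = 0.002773) and 1.31 ± 0.21 in WT cells (edgeR adjusted p = 1.667e-05). The summed H1 counts, 6 rows, were 10.4 ± 0.960 CPM in mutant cells with doxorubicin and 23.0 ± 1.07 in mutant control (SD, n = 2, plain CPM), and 13.7 ± 1.26 in WT with doxorubicin and 24.6 ± 1.22 in WT control.

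The tested H3 counts came almost all from Hist2h3c1. It had 96.3 and 102 CPM in mutant cells with doxorubicin, against 41.5 and 37.4 CPM in mutant control. Among WT libraries it had 107 and 92.6 CPM with doxorubicin, against 37.8 and 34.4 CPM in control. Treated and control libraries did not overlap, and Hist2h3c1 rose by a log2 fold change of 1.33 ± 0.09 in mutant cells (edgeR adjusted p = 3.325e-11) and 1.47 ± 0.09 in WT cells (edgeR adjusted p = 5.565e-12). Its share of all cluster histone counts was 61.1% to 64.72% in treated libraries and 37.72% to 43.85% in control libraries. Hist2h3c2, the paralog with which it shares 34.7% of its 50-base windows, had 0.521 and 0.752 CPM in mutant cells with doxorubicin, against 0.274 and 0.372 in mutant control. In WT cells Hist2h3c2 had 0.365 and 0.657 CPM with doxorubicin, against 0.408 and 0.147 in control, where the groups overlapped. Neither response of Hist2h3c2 was called, at 0.97 ± 0.52 in mutant cells (edgeR adjusted p = 0.1225) and 0.94 ± 0.54 in WT cells (edgeR adjusted p = 0.1398). Averaged over genotypes it was called at 0.96 ± 0.37 (edgeR adjusted p = 0.02868), but not by DESeq2 (adjusted p = 0.1094) or, in edgeR fits, without WT control B (adjusted p = 0.1505), treated WT B (0.1559), mutant control A (0.08144) or treated mutant B (0.0991). Reads could be split between these copies, since 63.5% of the windows of Hist2h3c2 occur in Hist2h3c1, and Hist2h3c1 also lies within the noncoding transcript Gm20634 on the same strand. The near-identical copies Hist2h2aa1 and Hist2h2aa2, the H2A genes beside the Hist2h3 pair, had no counts in any library.

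The 2 tested H2A genes both rose. Hist1h2ac had 2.12 and 2.49 CPM in mutant cells with doxorubicin, against 0.412 and 0.677 CPM in mutant control. In WT cells it had 3.98 and 2.60 CPM with doxorubicin, against 0.334 and 0.527 CPM in control. The groups did not overlap, and Hist1h2ac was 4.21-fold higher in mutant cells (log2 2.07 ± 0.33, edgeR adjusted p = 1.538e-05) and 7.38-fold higher in WT cells (log2 2.88 ± 0.32, edgeR adjusted p = 8.897e-08). The annotated span of Hist1h2ac overlaps the rRNA gene Gm24991 by 108 bases on the same strand. Hist3h2a, the H2A gene of the small Hist3 cluster, had 12.4 and 17.8 CPM in mutant cells with doxorubicin, against 5.62 and 6.13 CPM in mutant control. In WT cells Hist3h2a had 14.4 and 13.1 CPM with doxorubicin, against 5.35 and 5.48 CPM in control. Its treated libraries were all above its control libraries, by log2 1.36 ± 0.15 in mutant cells (edgeR adjusted p = 8.495e-08) and 1.34 ± 0.15 in WT cells (edgeR adjusted p = 9.437e-08). Hist3h2a lies wholly within the annotated span of Trim17 on the same strand. Summed over 22 rows, H2A counts were 17.1 ± 3.97 CPM in mutant cells with doxorubicin and 6.27 ± 0.624 in mutant control, and 18.003 ± 2.71 in WT with doxorubicin and 6.01 ± 0.344 in WT control, a ratio of 2.73 in mutant and 3.00 in WT cells.

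H2B genes moved in opposite directions, and their sums overlapped between treated and control libraries in both genotypes. Hist2h2be had 7.41 and 9.26 CPM in mutant cells with doxorubicin, against 11.3 and 13.6 CPM in mutant control. WT cells had 10.5 and 10.5 CPM with doxorubicin, against 15.04 and 14.18 CPM in control. Hist2h2be was lower with doxorubicin in every library of its genotype, by log2 -0.58 ± 0.13 in mutant cells (edgeR adjusted p = 0.0006705) and -0.47 ± 0.12 in WT cells (edgeR adjusted p = 0.002178), and none of its 50-base windows occurred in another cluster histone gene. Hist1h2bc had 15.5 and 15.4 CPM in mutant cells with doxorubicin, against 10.6 and 10.7 CPM in mutant control. In WT cells Hist1h2bc had 14.6 and 12.1 CPM with doxorubicin, against 11.8 and 11.4 CPM in control. Hist1h2bc rose in mutant cells by log2 0.53 ± 0.11 (edgeR adjusted p = 0.0004122) and was not called in WT cells at 0.21 ± 0.11 (edgeR adjusted p = 0.1196), and the difference between these responses, 0.33 ± 0.16, was not called (edgeR unadjusted p = 0.053). It was called in WT cells when library B of the treated WT group was left out (edgeR adjusted p = 0.02541).

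The H2B genes with the fewest counts were higher with doxorubicin. Hist1h2be had 1.32 and 1.62 CPM in mutant cells with doxorubicin, against 0.514 and 0.508 in mutant control. The WT libraries had 1.33 and 1.19 CPM with doxorubicin, against 0.557 and 0.440 in control. The groups did not overlap, at log2 1.52 ± 0.34 in mutant cells (edgeR adjusted p = 0.0005994) and 1.34 ± 0.33 in WT cells (edgeR adjusted p = 0.001659). Its annotated span overlaps Hist1h1e by 496 bases on the same strand. Hist1h2bp had 11 and 17 counts in mutant cells with doxorubicin, against 5 and 2 in mutant control. Among WT libraries it had 10 and 15 counts with doxorubicin, against 0 and 3 in control. The ratio of the summed, scaled counts was 4.67 in mutant cells (exact 95% interval 2 to 12.7) and 8.19 in WT cells (2.5 to 42.4), intervals that cover counting error only. The fitted change of Hist1h2bp was called in mutant cells (edgeR adjusted p = 0.007989), but not without control B (0.08397) or treated B (0.07095) of the mutant groups. It was also called in WT cells (edgeR adjusted p = 0.003656), with a fitted log2 value of 2.93 that became 6.52 without control B, when the remaining control library had 0 counts. Since the row passed the filter only through treated libraries, these calls are no independent evidence of a difference. Copies are a further limit, since 45.3% of its 50-base windows occur in other cluster histone genes. Summed over 21 rows, H2B counts were 25.4 ± 1.62 CPM in mutant cells with doxorubicin and 23.1 ± 1.84 in mutant control, and 27.0 ± 2.97 in WT with doxorubicin and 27.0 ± 0.208 in WT control.

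Hist1h2ac and Hist1h2bc form a divergent pair, on opposite strands with 251 bases between the annotated genes. Divergent H2A and H2B genes that share the stretch between them are a common arrangement in the histone clusters. Side by side, Hist1h2ac was 4.21-fold and Hist1h2bc 1.45-fold higher with doxorubicin in mutant cells, and Hist1h2ac 7.38-fold and Hist1h2bc 1.15-fold higher in WT cells. Of their 50-base windows, 11.6% for Hist1h2ac and 29.4% for Hist1h2bc occur in other cluster histone genes. The difference between the genes was not tested. Hist2h2be likewise faces the H2A gene Hist2h2ac across 239 bases, and Hist2h2ac had no counts.

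Of the tested H4 genes, Hist4h4 rose and Hist1h4i was not called. Hist4h4, the lone H4 gene of its locus, had 2.36 and 3.52 CPM in mutant cells with doxorubicin, against 0.583 and 0.812 CPM in mutant control. In WT cells it had 6.17 and 4.95 CPM with doxorubicin, against 1.04 and 0.821 CPM in control. Treated libraries were all above control libraries, by 4.20-fold in mutant cells (log2 2.07 ± 0.28, edgeR adjusted p = 2.109e-06) and 6.01-fold in WT cells (log2 2.59 ± 0.24, edgeR adjusted p = 6.995e-09). None of its 50-base windows occurred in another cluster histone gene. Hist1h4i had 8 and 4 counts in mutant cells with doxorubicin, against 7 and 10 in mutant control, and 7 and 9 counts in WT cells with doxorubicin, against 11 and 12 in WT control. Its change was not called, at log2 -0.27 ± 0.59 in mutant cells (edgeR adjusted p = 0.7246) and -0.55 ± 0.53 in WT cells (edgeR adjusted p = 0.3973). Its SE was among the widest of the 12 genes. Just outside the filter, Hist1h1e had 2 to 8 counts and Hist1h2bg 0 to 5 counts per library, beside 0 to 17 for Hist1h2bp and 4 to 12 for Hist1h4i just inside it.

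**Figure D3:**
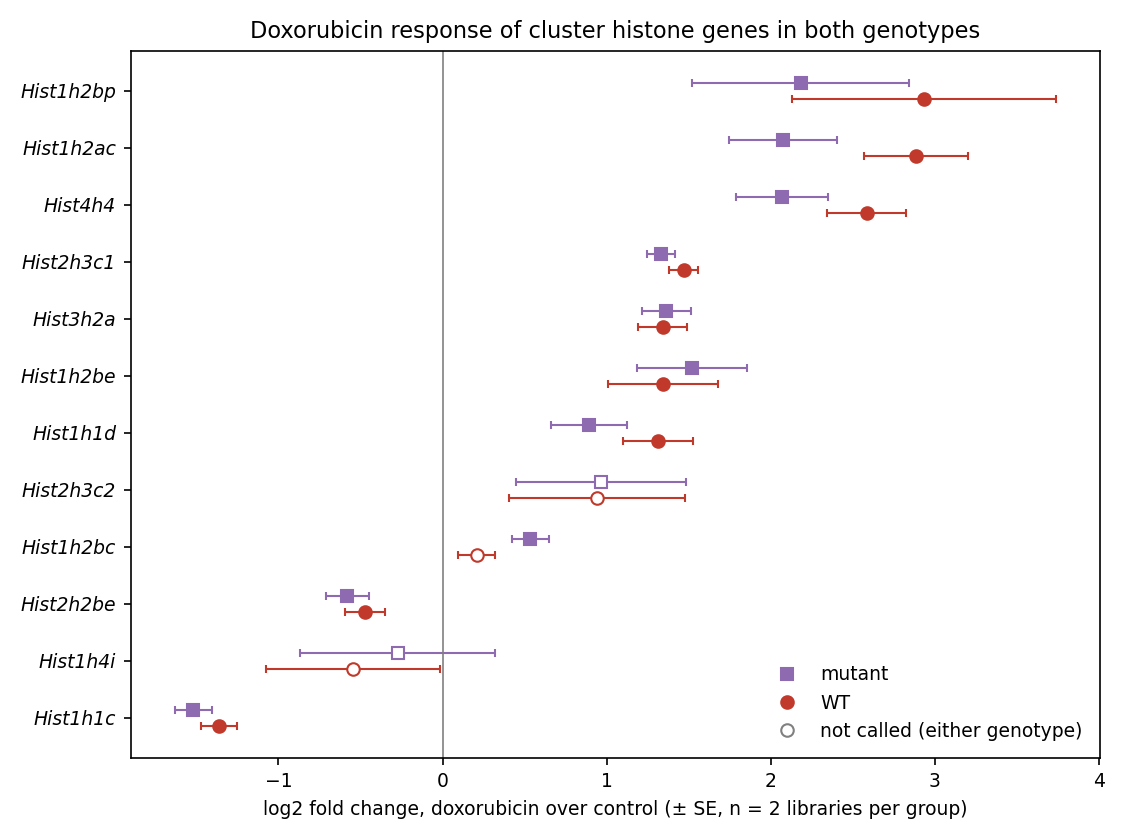
Log2 fold change with doxorubicin over control (± SE, 2 libraries per group) of the 12 tested genes in mutant cells (squares) and WT cells (circles), ordered by the WT value, with open symbols for values not called. In both genotypes Hist1h1c and Hist2h2be were called lower, and Hist1h2ac, Hist4h4 and Hist1h2bp had the largest positive values. Hist1h2bp passed the filter only through treated libraries, so its value was bound to lean upwards and is no independent evidence of a rise.

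Summed by class, H3 counts were 97.8 ± 3.99 CPM in mutant cells with doxorubicin and 38.5 ± 2.22 in mutant control, and 106 ± 15.2 in WT with doxorubicin and 36.7 ± 1.77 in WT control. H4 counts were 3.19 ± 0.736 CPM in mutant cells with doxorubicin and 1.02 ± 0.283 in mutant control, and 6.18 ± 1.08 in WT with doxorubicin and 1.32 ± 0.162 in WT control. Over all 75 rows the sums were 154 ± 11.3 CPM in mutant cells with doxorubicin and 91.9 ± 1.59 in mutant control, and 171 ± 23.2 in WT with doxorubicin and 95.6 ± 3.02 in WT control. The treated and control libraries did not overlap for H1, H2A, H3, H4 or the whole family in either genotype. With 2 libraries against 2, a two-sided exact permutation test cannot give a p under 0.3333, so no test of the sums is given. By cluster, the ratio of treated to control sums was 0.866 in mutant and 0.892 in WT cells for Hist1 and 2.09 in mutant and 2.27 in WT cells for Hist2. It was 2.60 in mutant and 2.65 in WT cells for Hist3, and 4.25 in mutant and 6.25 in WT cells for Hist4. The Hist1 sums were 30.3 ± 1.54 CPM in mutant cells with doxorubicin and 35.0 ± 1.54 in mutant control, without overlap. They were 33.8 ± 5.01 in WT with doxorubicin and 37.9 ± 1.19 in WT control, where the libraries overlapped in plain CPM. After TMM scaling the WT Hist1 sums were 34.6 and 29.7 CPM with doxorubicin and 39.2 and 36.1 in control, without overlap. Of the 7 tested Hist1 genes only Hist1h1c was called lower, and 5 were called higher in mutant and 4 in WT cells. The Hist2 sum is mostly Hist2h3c1.

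**Figure D4:**
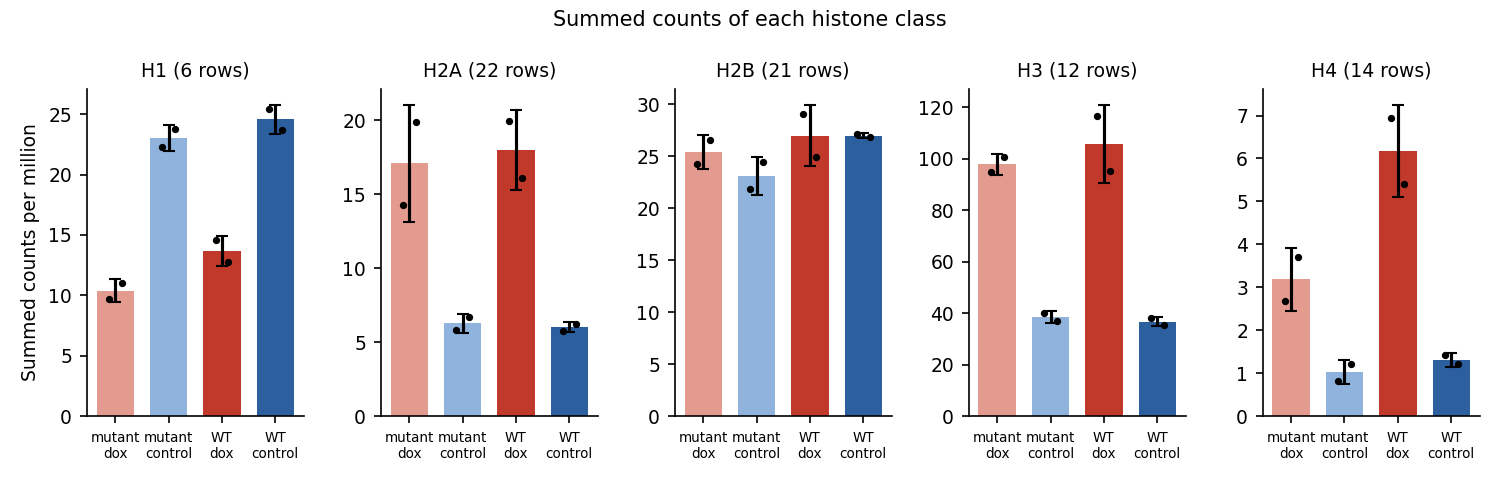
Summed counts (plain CPM, without TMM scaling) of each histone class in mutant with doxorubicin, mutant control, WT with doxorubicin and WT control (dox, doxorubicin). Bars are means from 0, error bars the SD of 2 libraries and points the libraries; H1 sums were lower with doxorubicin, H2A, H3 and H4 sums higher, and H2B sums lay between 21.8 and 29.1 in all libraries.

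The responses of the mutant and WT cells were then compared, since the title of the study asks which part of the expression programme depends on Dino. None of the 12 genes was called for a difference between the responses, where 0.0895% of all rows were called by edgeR, and 0 of the 12 had an unadjusted p under 0.05; limma-voom and DESeq2 also called 0. The values ranged from -0.81 ± 0.50 for Hist1h2ac to 0.33 ± 0.16 for Hist1h2bc, with -0.52 ± 0.40 for Hist4h4 and -0.42 ± 0.32 for Hist1h1d (log2, mutant minus WT response). A p that misses the threshold does not show that the responses were alike. In control cells 0 of the 12 were called between genotypes, where 5.94% of all rows were, with 0 at an unadjusted p under 0.05 by edgeR and 0 called by limma-voom and DESeq2.

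With doxorubicin, Hist4h4 was the only tested member called between genotypes, where 7.67% of all rows were called and 3.74% were called lower. It had 2.36 and 3.52 CPM in mutant cells with doxorubicin, against 6.17 and 4.95 in WT cells with doxorubicin, a log2 difference of -0.91 ± 0.21 (edgeR adjusted p = 0.006641). Of the 12 genes, 3 had an unadjusted p under 0.05 by edgeR, as did 2398 of all 12296 rows. The Hist4h4 call was lost without library A of the treated mutant group (adjusted p = 0.1472) or library A of the treated WT group (edgeR adjusted p = 0.1129). Hist1h1d was 2.64 and 2.61 CPM in mutant cells with doxorubicin, against 4.01 and 3.88 in WT cells with doxorubicin, and was not called at -0.59 ± 0.20 (edgeR adjusted p = 0.08615). Hist2h2be, the third, was 7.41 and 9.26 CPM in mutant cells with doxorubicin, against 10.5 and 10.5 in WT cells with doxorubicin, and was not called at -0.33 ± 0.13 (edgeR adjusted p = 0.1416). Among annotated coding genes that the count table also names, the nearest to Hist4h4 is H2afj. It is a replication-independent H2A gene 3829 bases away on the opposite strand. H2afj had 18.6 and 20.1 CPM in mutant cells with doxorubicin, against 26.1 and 25.5 in WT cells with doxorubicin, and was called lower there at -0.42 ± 0.10 (edgeR adjusted p = 0.01279). The genotypes also differed in sex-linked genes, with Xist at 212 to 576 CPM in mutant and 0.232 to 0.376 CPM in WT libraries, and Ddx3y at 58.8 to 74.0 CPM in mutant and 448 to 580 CPM in WT libraries. Genotype and the mix of embryos behind it cannot be told apart.

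Genes that act on histone mRNA mostly fell. The shares called lower over all rows, 25.7% in mutant and 27.9% in WT cells, and called in either direction, 54.0% in mutant and 57.2% in WT cells, are the background for this and the following lists. Of 21 tested genes of histone mRNA synthesis and processing, 11 were lower and 2 higher with doxorubicin in mutant cells, and 13 lower and 2 higher in WT cells, with median log2 changes of -0.44 in mutant and -0.58 in WT cells. Slbp, the stem-loop binding protein gene, had 97.9 and 93.4 CPM in mutant cells with doxorubicin, against 141 and 136 in mutant control. WT cells had 79.9 and 87.7 CPM with doxorubicin, against 156 and 143 in control. Slbp changed by -0.53 ± 0.07 in mutant cells (log2, edgeR adjusted p = 3.181e-06) and -0.83 ± 0.07 in WT cells (edgeR adjusted p = 3.885e-09). Npat, the coactivator of histone gene transcription that cyclin E and Cdk2 phosphorylate, changed by -0.65 ± 0.08 in mutant cells (edgeR adjusted p = 5.555e-07) and -0.64 ± 0.08 in WT cells (edgeR adjusted p = 5.619e-07). Ccne1, which encodes cyclin E1, was at 0.616 ± 0.304 CPM in mutant cells with doxorubicin and 2.64 ± 0.338 in mutant control, and 0.971 ± 0.267 in WT with doxorubicin and 3.46 ± 0.0907 in WT control, and was called lower in both genotypes. Lsm11, a subunit of the U7 snRNP that cuts histone pre-mRNA, fell (log2 -1.28 ± 0.20 in mutant and -1.15 ± 0.20 in WT cells), and Cstf2, a cleavage factor subunit, fell (log2 -0.71 ± 0.08 in mutant and -0.95 ± 0.08 in WT cells). Zcchc6, an RNA uridyltransferase gene, rose by 1.14 ± 0.17 in mutant cells and 1.03 ± 0.17 in WT cells.

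The histone variant genes, which are mostly polyadenylated and expressed outside S phase as well, went both ways. Of 10 tested, 4 were lower and 3 higher in mutant cells, and 5 lower and 3 higher in WT cells, with medians of -0.15 in mutant and -0.25 in WT cells. Over all rows 28.3% were called higher and 25.7% lower in mutant cells, and 29.3% higher and 27.9% lower in WT cells, so the share called higher was near the background. H1f0, the linker variant of quiescent and differentiated cells, had 22.7 ± 2.28 CPM in mutant cells with doxorubicin and 88.2 ± 1.33 in mutant control, and 20.8 ± 0.254 in WT with doxorubicin and 92.2 ± 2.48 in WT control. It fell (log2 -1.96 ± 0.09 in mutant and -2.15 ± 0.08 in WT cells) on the log2 scale. H2afx, whose protein is phosphorylated beside DNA breaks, fell (log2 -1.16 ± 0.18 in mutant and -1.82 ± 0.19 in WT cells), and H2afz fell (log2 -0.79 ± 0.09 in mutant and -0.83 ± 0.09 in WT cells). H2afj, the neighbour of Hist4h4, rose by 1.34 ± 0.11 in mutant and 1.55 ± 0.11 in WT cells.

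Chaperone and DNA synthesis genes were called mainly in the lower direction. Of 19 tested histone chaperone and acetyltransferase genes, 9 were lower in mutant cells and 11 in WT cells, and none was called higher in either, where over all rows 25.7% were called lower and 54.0% in either direction in mutant cells, and 27.9% lower and 57.2% in either direction in WT cells. Nasp, which carries H1 and H3–H4, fell (log2 -1.10 ± 0.08 in mutant and -1.33 ± 0.08 in WT cells), and Asf1b, an H3–H4 chaperone of S phase, fell (log2 -0.51 ± 0.11 in mutant and -0.81 ± 0.11 in WT cells). Anp32e, a chaperone that removes H2A.Z, fell (log2 -0.51 ± 0.07 in mutant and -0.67 ± 0.07 in WT cells), and Hjurp, the CENP-A chaperone, fell (log2 -1.50 ± 0.62 in mutant and -2.18 ± 0.61 in WT cells) at under 0.6 mean CPM. Of 22 DNA synthesis genes, 11 were lower and 2 higher in mutant cells, and 14 lower and 1 higher in WT cells, with medians of -0.37 in mutant and -0.57 in WT cells, against the same 25.7% of all rows called lower in mutant and 27.9% in WT cells. Uhrf1, which couples maintenance methylation to replication, fell (log2 -1.54 ± 0.08 in mutant and -1.83 ± 0.08 in WT cells). The origin licensing genes Cdt1 and Cdc6 fell, Cdt1 with -1.39 ± 0.15 in mutant and -1.79 ± 0.15 in WT cells and Cdc6 with -1.37 ± 0.14 in mutant and -1.57 ± 0.14 in WT cells. Rrm2, a ribonucleotide reductase subunit gene, rose by 0.65 ± 0.06 in mutant and 0.54 ± 0.06 in WT cells.

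Of 15 genes of general cleavage and polyadenylation, 8 were lower in mutant cells and 7 in WT cells, and none was called higher, with medians of -0.23 in mutant and -0.27 in WT cells. The number called in either direction was near or below the share of all rows (54.0% in mutant and 57.2% in WT cells), and the number called lower was above it (25.7% in mutant and 27.9% in WT cells); neither gap was tested. Cstf3 fell (log2 -0.72 ± 0.10 in mutant and -0.66 ± 0.09 in WT cells). Nudt21, which favours distal cleavage sites, fell (log2 -0.47 ± 0.19 in mutant and -0.58 ± 0.18 in WT cells). Cpsf7 fell (log2 -0.50 ± 0.08 in mutant and -0.55 ± 0.08 in WT cells), and Pabpn1, the nuclear poly(A) binding protein gene, also fell (-0.37 ± 0.09 in mutant and -0.51 ± 0.08 in WT cells). No gene of the 5 lists was called for a difference between the responses. As a check of the treatment, the p53 targets Cdkn1a and Mdm2 rose by 2.50 ± 0.10 and 2.91 ± 0.07 in mutant cells and by 2.46 ± 0.10 and 3.09 ± 0.07 in WT cells. The level of Cdkn1a was called lower in mutant than in WT cells. The log2 difference was -0.49 ± 0.11 in control (edgeR adjusted p = 0.008217) and -0.45 ± 0.09 with doxorubicin (edgeR adjusted p = 0.0023). Mdm2 was not called in either of these comparisons.

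**Figure D5:**
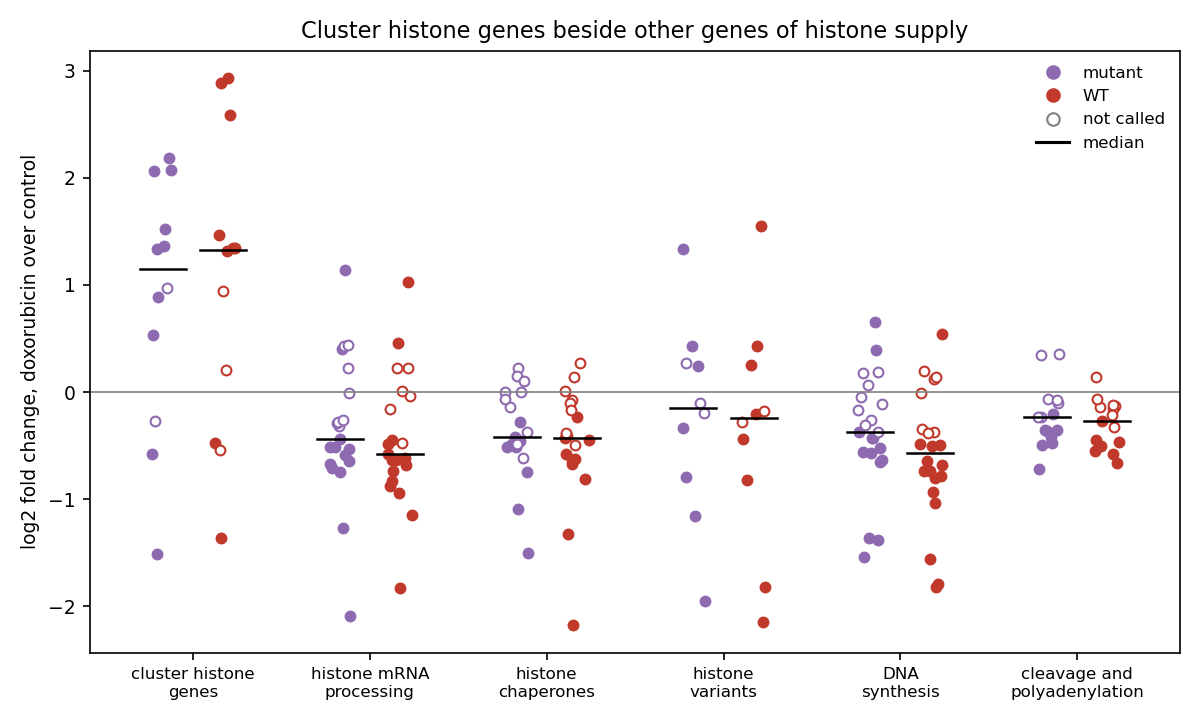
Log2 fold change with doxorubicin over control of the 12 tested cluster histone genes and of 5 lists of related genes, in mutant cells (purple) and WT cells (red). Points are genes, open where not called, and lines are medians, which were 1.15 in mutant and 1.33 in WT cells for the cluster histone genes and below 0 for the 5 lists in both genotypes.

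Promoter sequence was set beside these responses for members that moved in opposite directions. RefSeq promoters (GRCm38.p6, from upstream of the start to just past it) were matched for 10 of the 12 tested genes. The CCAAT box (letters CCAAT, either strand) occurred in 8 of these 10, in 22 of 25 promoters of genes below the filter and in 22 of 26 of genes without counts, against 37.4% of 32851 RefSeq promoters. The letters TATAAA occurred in 4 of 10, 16 of 25 and 15 of 26 of the same sets and in 13.6% of all promoters, and the octamer ATTTGCAT, the binding motif of Oct-1, in 3 of 10, 5 of 25 and 6 of 26 and in 1.74% of all promoters. No motif contains another. Below are the promoters of Hist1h2ac and Hist3h2a, which rose, and of Hist1h1c, which fell, with matches to the 3 motifs on either strand in capitals.
Hist1h2ac (chr13:23683910-23684209, minus strand): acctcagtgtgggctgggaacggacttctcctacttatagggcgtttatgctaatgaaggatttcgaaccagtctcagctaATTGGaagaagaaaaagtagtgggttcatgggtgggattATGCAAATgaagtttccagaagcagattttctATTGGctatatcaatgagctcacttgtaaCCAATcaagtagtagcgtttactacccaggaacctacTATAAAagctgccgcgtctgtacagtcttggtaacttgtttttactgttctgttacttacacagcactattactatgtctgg
Hist3h2a (chr11:58954435-58954734, plus strand): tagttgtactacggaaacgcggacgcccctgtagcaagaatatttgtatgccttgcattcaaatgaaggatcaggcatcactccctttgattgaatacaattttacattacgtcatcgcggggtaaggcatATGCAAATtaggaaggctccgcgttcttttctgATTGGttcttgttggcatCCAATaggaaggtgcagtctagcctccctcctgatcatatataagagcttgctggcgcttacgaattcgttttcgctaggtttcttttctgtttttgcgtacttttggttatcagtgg
Hist1h1c (chr13:23738557-23738856, plus strand): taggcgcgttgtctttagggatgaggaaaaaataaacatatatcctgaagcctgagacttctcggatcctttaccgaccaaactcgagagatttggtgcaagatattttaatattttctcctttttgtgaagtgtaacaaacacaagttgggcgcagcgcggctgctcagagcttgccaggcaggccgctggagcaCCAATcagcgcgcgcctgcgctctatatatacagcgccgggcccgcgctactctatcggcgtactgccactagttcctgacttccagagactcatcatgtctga
Hist1h2ac held 3 CCAAT matches, 1 TATAAA match and 1 octamer match, Hist3h2a held 2 CCAAT matches and 1 octamer match, and Hist1h1c held 1 CCAAT match. The window of Hist4h4, which also rose, held none of the 3. That of Hist2h3c1, which rose too, held 1 CCAAT match and neither of the other motifs, the same as Hist1h1c. Hist1h1d, another H1 gene that rose, held 1 CCAAT match, 3 TATAAA matches and no octamer match. The windows shown are examples, and a link between motifs and response was not tested. Hist1h2be had 2 RefSeq windows, and its octamer match was in only 1 of them; a gene was counted where any of its windows held the motif. These matches describe letters in the windows and say nothing of which factor binds there.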

How the data were processed

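RNA of mouse embryonic fibroblasts was measured in 8 libraries. The deposited table holds raw read counts per gene name, with no normalization by the authors. Per the submitters' processing notes, the tools were Bowtie2 and HTSeq and the build was mm9. Annotation, strand setting and treatment of multi-mapping reads are not given in the sources used here, so near-identical copies, overlapping genes and antisense genes are uncertain. The table has 30419 names, of which 18596 have a count, 5598 are UCSC identifiers and 27 were turned into dates.

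Rows with 10 or more counts in 2 or more libraries (12296) were scaled by TMM and fitted with edgeR 4.0.16 in R 4.3.3, with 1 coefficient per group over 8 libraries (4 residual degrees of freedom, biological coefficient of variation 0.0636). Quasi-likelihood p-values were two-sided, with Benjamini-Hochberg adjustment across the tested rows. The SE is the size of the log2 fold change divided by the root of F. limma 3.58.1 and DESeq2 1.42.0 were alternatives, and the scripts were tested on simulated data. Libraries A and B differed by a chi-square per degree of freedom of 5.42 in mutant with doxorubicin, 5.55 in mutant control, 18.1 in WT with doxorubicin and 6.14 in WT control, so none is a duplicate. The treated WT libraries thus differed most, while the fit took the groups to share a spread. Stem-loops, lengths and overlaps come from GENCODE M21 (GRCm38) and promoters from RefSeq (GRCm38.p6), another build than the counts. The members and lists were chosen with earlier results of these data known. All tested members are named, with up to 4 genes per list called in WT cells by size, 1 of the other direction included, and Slbp, Npat, Cdkn1a and Mdm2. H2afj was also named beside its neighbour, and Xist and Ddx3y after their values were seen. A planned list of the most alike members is not given, because the libraries fall into treated and control clusters.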

Additional observations from a re-analysis of the deposited data

How the results depend on the processing

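Alternatives were other scaling (DESeq2 size factors, upper quartile), other tools (DESeq2, limma-voom), other filters, an adjusted p under 0.10, the replicate letter as a block, a fit of only the groups compared, each library left out, and, chosen after seeing the data, Hist2h3c1 and Hist2h3c2 summed. The count of called members was 9 in WT cells (10 without control A or treated B of the WT groups), 10 in mutant cells (9 without control B or treated B of the mutant groups) and 0 for the difference and for control cells under every alternative that gave a value. For mutant against WT cells with doxorubicin it was 1, with 2 at an adjusted p under 0.10 and 0 to 1 when a library was left out, 0 being without treated A of either genotype. With the replicate block the counts were 10 in mutant cells, 9 in WT cells, 0, 0 and 1. The correlation of deviations of same-lettered libraries was at most 0.074, between mutant control A and treated mutant A. No strong effect shared by letter was seen, but this cannot show whether the letters pair samples. Over all rows, the count for the difference was 11, with 48 without a filter, 4 with limma-voom, 20 at an adjusted p under 0.10 and 0 to 49 with a library left out. For genotype in control cells it was 730 and 390 to 838, and with doxorubicin 943 and 516 to 1206, with a library left out.

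Values that changed sign were all uncalled. Between genotypes with doxorubicin Hist2h3c1 was 0.00228 under upper quartile scaling, and the difference between responses of Hist2h3c2 was -0.0833 with limma-voom. With a library left out, log2 values ran as follows. Between genotypes in control cells, Hist1h1c ran from -0.0998 to 0.0202, Hist1h1d from -0.45 to 0.13, Hist1h2ac from -0.10 to 0.70, Hist1h2be from -0.12 to 0.21 and Hist2h3c2 from -0.33 to 1.116. Between genotypes with doxorubicin, Hist1h4i ran from -0.69 to 0.31, Hist2h3c1 from -0.11 to 0.10, Hist2h3c2 from -0.0481 to 0.80 and Hist3h2a from -0.15 to 0.38. For the difference between responses, Hist1h2bp ran from -4.34 to 0.0480, Hist1h4i from -0.31 to 0.69, Hist2h2be from -0.28 to 0.0385, Hist2h3c2 from -0.81 to 0.64 and Hist3h2a from -0.27 to 0.25. The mutant response of Hist1h4i ran from -0.85 to 0.15. The cause was not tested. Calls of the response averaged over genotypes were 11. They were 10 with DESeq2, where Hist2h3c2 lost its call (adjusted p = 0.1094), and 10 with Hist2h3c1 and Hist2h3c2 summed. With a library left out, the averaged log2 response of Hist2h3c2 ran from 0.65 to 1.37. The fits without a library in which it was not called are named above. Hist2h3c2 was called in WT cells without WT control A (edgeR adjusted p = 0.04343). Hist1h4i, Hist1h2bp and Hist2h3c2 had at most 21 counts in a library. A fit that leaves a library out takes the lone library of its group to vary like the other groups.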
